A study of Mus musculus with 8 samples.

Results

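The 2 H3K4me3 libraries of the series, from untreated macrophages (0 h) and from macrophages 4 h after stimulation, were compared for the height and the width of their enriched clusters. They are 2 of 8 libraries and were chosen by antibody and time, not by any measured value. The cells were bone marrow-derived macrophages, phagocytes grown in culture from the marrow of female Fvb mice aged 6 to 8 weeks. Stimulation was with lipopolysaccharide, a component of the bacterial cell wall, and interferon gamma, a cytokine of T and NK cells. The other 6 libraries, read here only as peak positions inside H3K4me3 clusters, mapped Jmjd3 at 2 h, RNA polymerase II (Pol II) at 0, 2 and 4 h, and H3K27me3 at 0 and 4 h of the same treatment. There was 1 library for each antibody and time. Differences between times could not be set against a replicate, and no p-values are given. The labels do not say how many mice or cultures went into a library. The files hold no expression values, so the cell type could not be checked against its marker genes.

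H3K4me3 is trimethylation of lysine 4 on histone H3. It is laid down by SET1 and MLL complexes around transcription start sites, over CpG islands in particular, and its amount at a promoter follows how often polymerase initiates there. Broad stretches that run from the promoter into the gene body are known from genes that are transcribed at high rates and from genes of cell identity. H3K27me3 is the mark of Polycomb repression, and Jmjd3 (Kdm6b) is a demethylase that acts on it. In macrophages, lipopolysaccharide and interferon gamma both switch on promoters of cytokine and antimicrobial genes.

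The list of untreated cells held 21418 clusters that covered 68.1 Mb, and the list at 4 h held 19631 clusters that covered 63.9 Mb. The authors gave each cluster a start, an end and a maximum overlap count, called its height here. The count was not scaled to depth as far as headers and labels say, and the exact depth of both libraries was unknown, beyond 10000000 uniquely mapped tags each per the labels. Heights were therefore ranked within lists and not divided by each other. Both lists began at a height of 11. The quartiles of height were 21, 78 and 182 at 0 h and 23, 97 and 193 at 4 h, and the maxima were 361 and 365. Heights crowded most at the lower end: the lowest decile of the 0 h list spanned 11 to 13 and the second 14 to 17. The sixth spanned 78 to 128, the ninth only 195 to 219 and the top 220 to 361. Small differences in count thus span many ranks among low clusters and, to a lesser degree, in the ninth decile.

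Tall clusters were wide. The median width at 0 h went from 1630 bp in the lowest decile of heights to 3029 bp in the sixth and 4127 bp in the highest. At 4 h the same steps were 1677, 3150 and 4023 bp. In every decile the medians of both times lay inside the interquartile range of the other time, as the plot of width by height rank shows. Spearman's rho of height and width over the paired clusters was 0.61 at both times, a description across clusters of 1 library each.

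**Figure D1:**
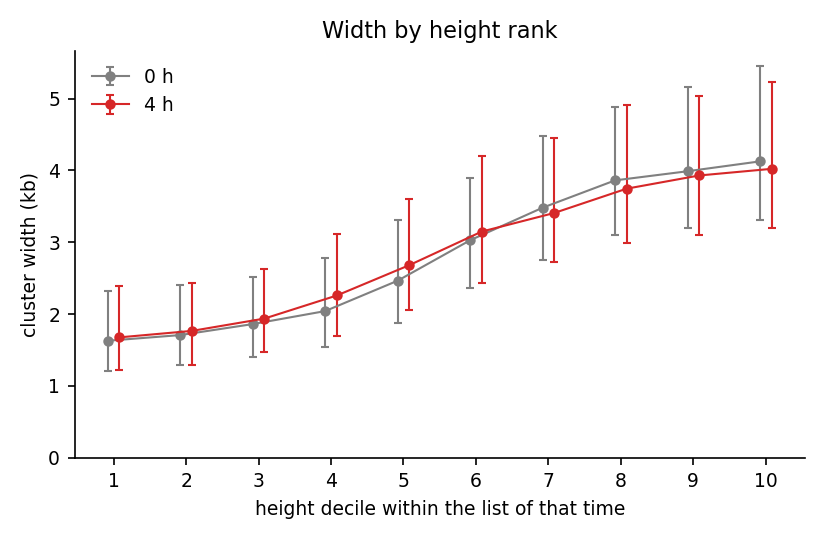
Width of H3K4me3 clusters (kb) against the decile of their height within the list of that time, for 0 h (grey) and 4 h (red); points are medians and bars run from the first to the third quartile. Medians climbed from 1630 to 4127 bp in untreated cells and from 1677 to 4023 bp after stimulation.

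Most clusters had exactly 1 partner at the other time. With at least 1 shared bp as the rule, 17651 clusters of each list formed one-to-one pairs, 82.4% (81.9 to 82.9) of the 0 h list and 89.9% (89.5 to 90.3) of the 4 h list. Intervals in brackets are exact 95% binomial intervals, which cover counting error only because neighbouring clusters are not independent. A further 231 clusters of 0 h were split, each meeting several clusters at 4 h, 198 clusters of 4 h were fusions of several 0 h clusters, and 158 groups joined several clusters of both times. Clusters with no partner numbered 2810 at 0 h and 995 at 4 h. The shorter cluster of a pair mostly lay inside the longer: the shared stretch covered a median of 100% of the shorter cluster, and 6 of the 17651 pairs shared less than 50% of it. Both edges lay within 100 bp of each other in 1042 pairs (5.90%). The smallest shared stretch was 51 bp, and the nearest unpaired clusters lay 4 bp from a cluster of the other time. Of the unpaired clusters, 69 at 4 h and 131 at 0 h lay under 1 kb from one.

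Widths of pairs were slightly smaller at 4 h. The median width was 2998 bp at 0 h and 2908 bp at 4 h, and the median ratio of 4 h to 0 h was 0.973 (exact binomial interval of the median 0.969 to 0.978). The middle 50% of ratios ran from 0.829 to 1.14. Of the pairs, 55.1% were narrower at 4 h and 44.8% wider. A width call was set at 1.5-fold. By it 1083 pairs, 6.14% of those compared, were wider at 4 h and 1460, 8.27%, were narrower. At 2-fold these were 227 pairs (1.29%) and 297 pairs (1.68%). The total width of the pairs was 58.6 Mb at 0 h and 57.4 Mb at 4 h.

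Width calls were more frequent among low clusters. Of the pairs with a 0 h height of 11 to 33, 11.4% (10.5 to 12.3) were wider and 14.2% (13.2 to 15.3) narrower. Of those with a height of 192 to 361, 2.19% (1.78 to 2.67) were wider and 4.50% (3.90 to 5.15) narrower. Narrower pairs outnumbered wider ones in each of the 4 height classes. By 0 h width, which is the denominator of the ratio, 13.9% of the narrowest quartile (316 to 2100 bp) and 1.77% of the widest (4092 to 20398 bp) were wider at 4 h.

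**Figure D2:**
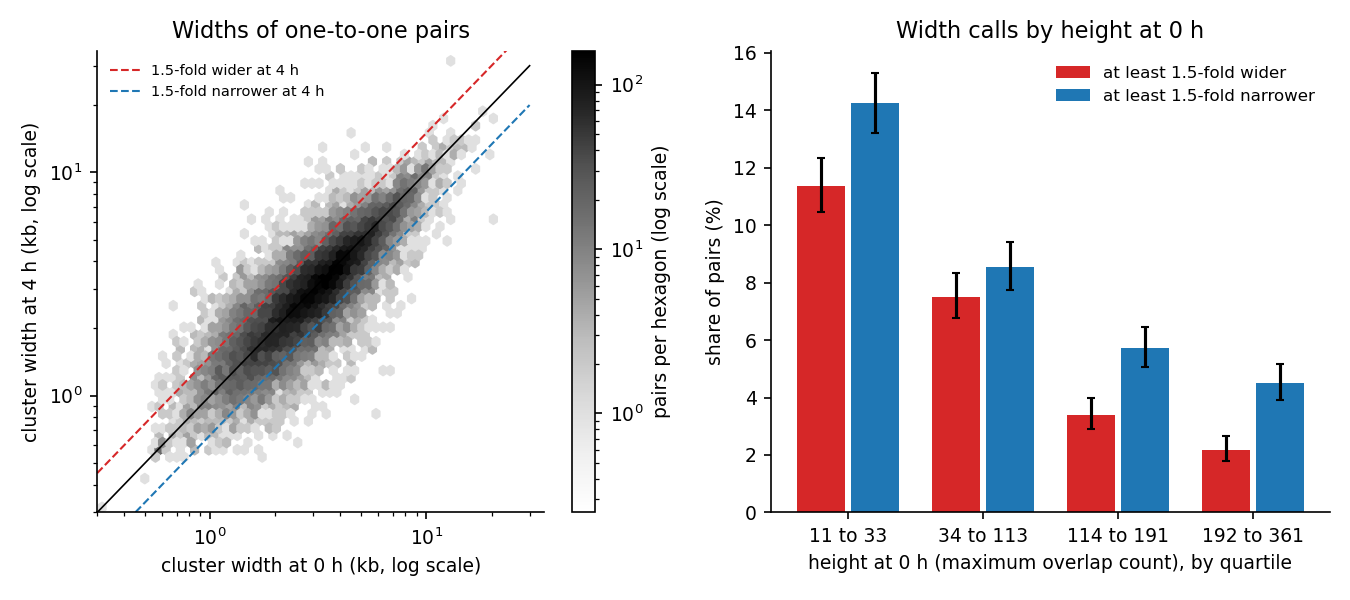
Left, width at 4 h against width at 0 h (kb, log scales) for the 17651 one-to-one pairs, shaded by the number of pairs, with lines at equality and at 1.5-fold in either direction; right, share of pairs (%) past 1.5-fold by quartile of 0 h height, with exact 95% binomial intervals. Calls in both directions fell off with height, from 11.4 and 14.2% in the lowest quartile to 2.19 and 4.50% in the highest.

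Edges of all pairs moved by a median of 262 bp on the low-coordinate side and 266 bp on the other, inwards by 32 and 26 bp on balance, and the shifts of the 2 edges were nearly unrelated across pairs (Spearman's rho 0.033). In the 1083 wider pairs, the median gain was 1460 bp, with 1182 bp on the side that gained more and 219 bp on the other. In 556 of them (51.3%) the lesser side gained at most 20% of what the larger side gained, or moved inwards, and in 225 (20.8%) both edges moved out by at least 500 bp. In the 1460 narrower pairs the median loss was 1373 bp, and 697 (47.7%) were one-sided by the same measure. No like share is given for the 15108 steady pairs, because the measure as computed there also counted pairs whose edges both moved outwards. Whether one-sided differences were more or less frequent in the called pairs was thus not determined.

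The pairs with the largest width ratios are named among those with a percentile rank of at least 25 at both times. Genes are not named, since no gene annotation of mm8, the build of these coordinates, was used. The cluster at chr11:48929525-48932364 was 2840 bp wide and 119 high at 0 h, and 11631 bp wide and 249 high at 4 h, a ratio of 4.10. It gained 8938 bp on its high-coordinate side, while the other edge moved inwards by 147 bp. It held 2 Jmjd3 peaks, no Pol II peak at 0 h and 9 at both 2 and 4 h. The cluster at chr1:173482881-173486236 went from 3356 to 12644 bp (ratio 3.77), with heights of 40 and 175. Its low-coordinate edge moved out by 8921 bp, and its Pol II peaks numbered 1 at 0 h and 9 at both 2 and 4 h. The cluster at chr16:84584961-84587140 went from 2180 to 8041 bp (ratio 3.69), with heights of 86 and 196 and with 0, 7 and 8 Pol II peaks at 0, 2 and 4 h. These first 3 were thus wider, taller and newly or more densely covered by Pol II.

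The next 2 were wider without a like shift in rank. The cluster at chr19:11111594-11113417 went from 1824 to 6704 bp (ratio 3.68), its percentile rank was 40.3 at 0 h and 43.8 at 4 h, and it held 1, 5 and 4 Pol II peaks at 0, 2 and 4 h. Its ratio was 6.55 when clusters of a list under 1 kb apart were merged first. The cluster at chr18:69323197-69324629 went from 1433 to 5199 bp (ratio 3.63) with heights of 98 and 102. It held no Jmjd3 and no Pol II peak at any time, and 1 H3K27me3 peak at 0 h and 2 at 4 h. Jmjd3 was thus listed in 4 of these 5 clusters, against 15.0% of all pairs and 19.7% of wider pairs. The 5 were 5199 to 12644 bp wide at 4 h, against a median of 2908 bp over all pairs, and so offered more sequence in which a peak can lie.

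The narrower pairs were less alike. The smallest ratio, 0.149, was at chr16:10888165-10893962, which went from 5798 to 866 bp while its height was 36 and 41. It held 6, 6 and 5 Pol II peaks at 0, 2 and 4 h, and peaks of every other list. The cluster at chr1:172898971-172901595 went from 2625 to 621 bp (ratio 0.237) with heights of 54 and 51. The cluster at chr9:55887468-55907865, 20398 bp wide at 0 h, was 5975 bp wide at 4 h (ratio 0.293). It held 7, 12 and 13 Pol II peaks, more at the later times although the mark was shorter. The clusters at chrX:96941412-96946578 (5167 to 1528 bp, ratio 0.296) and chr14:54715062-54720817 (5756 to 1735 bp, ratio 0.301) held 1 and 4 Pol II peaks at 0 h and none later. Of these narrower pairs, those on chromosomes 16 and 9 held Jmjd3 and those on chromosomes 1, X and 14 did not. Whole-list rank shifts of the 5 narrower pairs named here were -11.4 to -1.14 points, and those on chromosomes 9 and X passed the 10 point call for lower. With ranks among pairs alone their shifts were -8.48 and -5.98 points, and neither passed it.

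A percentile rank is the share of a list that is lower, with ties counted as 50%. The heights of paired clusters at 0 and 4 h had a Spearman's rho of 0.97, against 0.83 for their widths. Ranked within the whole lists, the median shift was -3.45 points (-3.52 to -3.30), 628 pairs (3.56%) ranked at least 10 points higher at 4 h and 3168 (17.9%) at least 10 points lower. At 20 points these were 64 pairs (0.363%) and 457 pairs (2.59%). Ranks from lists of different lengths show no change by themselves, and the 0 h list had 1787 clusters more. With ranks over the 17651 pairs alone, the median shift was 0.26 points, with 1370 pairs (7.76%) at least 10 points higher and 1583 (8.97%) at least 10 points lower. At 20 points these were 115 pairs (0.652%) and 176 pairs (0.997%). Of the 628 pairs that were higher in the whole lists, 607 were also higher among pairs.

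**Figure D3:**
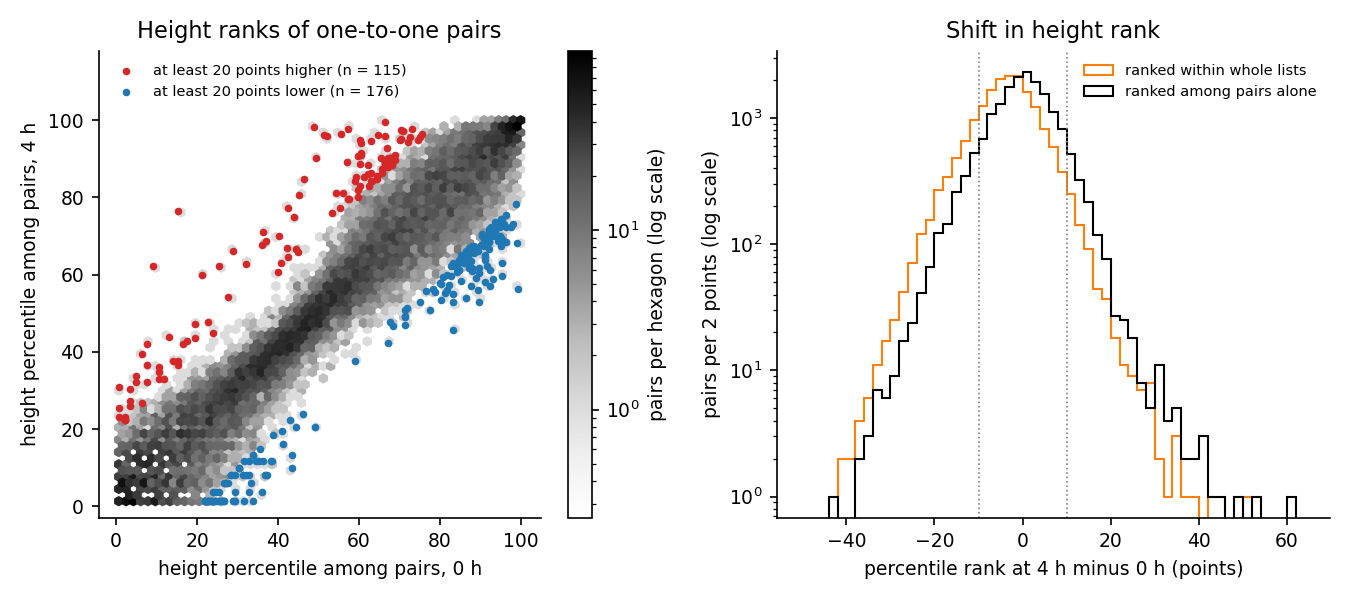
Left, percentile rank of height at 4 h against 0 h among the 17651 pairs, shaded by the number of pairs, with pairs shifted by at least 20 points in red (115 higher) and blue (176 lower); right, number of pairs per 2 points of shift (log scale) with ranks within whole lists (orange) and among pairs alone (black), and dotted lines at 10 points. The whole-list shifts are centred at -3.45 points and those among pairs at 0.26.

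Shifts of at least 10 points among pairs were unevenly spread over the heights. Pairs ranked higher made up 11.3% (10.4 to 12.3) of pairs with a 0 h height of 11 to 33, 2.29% (1.87 to 2.77) at 34 to 113, 12.4% (11.4 to 13.4) at 114 to 191 and 4.93% (4.31 to 5.62) at 192 to 361. Lower shifts were 8.21, 7.33, 5.40 and 15.1% in the same classes. A pair at the top of the list can only move down and a pair at the bottom only up.

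The largest shift was at chr17:45869363-45871001, a cluster 22 high at 0 h and 199 high at 4 h, with percentile ranks of 26.2 and 77.8 within the whole lists. Its width was 1639 and 1326 bp, so it was not wider, and it held 1 Pol II peak at each time and 1 Jmjd3 peak. The cluster at chr19:34635272-34637777 went from height 17 to 162 and from 2506 to 6345 bp. It held no Pol II peak at 0 h, 5 at both 2 and 4 h, and 2 Jmjd3 peaks. The cluster at chr2:164744473-164749217 went from 108 to 260 (ranks 56.0 and 98.3) and from 4745 to 11809 bp, with 1, 10 and 8 Pol II peaks at 0, 2 and 4 h. The chromosome 11 cluster with the largest width ratio followed, with ranks of 58.2 and 96.5. The fifth, at chr11:9017047-9020047, had ranks of 58.8 and 96.3, with a height of 248 at 4 h, and went from 3001 to 7238 bp, with 1, 5 and 5 Pol II peaks. All 5 held Jmjd3, which was listed in 15.0% of all pairs. At 4 h, 4 of the 5 were at least 2-fold wider, and these offered more sequence in which a peak can lie.

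The 5 largest shifts down are also ordered by whole-list rank, which the unequal list lengths affect. Among pairs alone the chromosome 17 cluster had the largest shift down of all, -43.0 points, and the other 4 had shifts of -33.4 to -30.4. The cluster at chr16:51979385-51981508 went from height 51 to 11 (ranks 42.9 and 2.29) and from 2124 to 774 bp. The cluster at chr17:34801321-34811403, 10083 bp wide and at rank 99.4 with a height of 268 at 0 h, was 10615 bp wide and at rank 58.9 with a height of 140 at 4 h. It held 5 Jmjd3 peaks and 5, 9 and 6 Pol II peaks at 0, 2 and 4 h, so H3K4me3 ranked lower at a site with more Pol II peaks at 2 and 4 h than at 0 h. The clusters at chr13:42256263-42257739 (height 46 and 11), chr4:16094333-16096979 (57 and 12) and chr9:119849446-119851488 (84 and 15) completed the 5, with width ratios of 1.06, 0.53 and 0.78. Jmjd3 peaks numbered 1 in the chromosome 16 cluster and 2 in the chromosome 9 cluster, and those on chromosomes 13 and 4 held none. Heights of 11 and 12 are at or next to the lowest listed, so 3 of these 5 clusters were nearly off the list at 4 h.

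Width and height rank were only loosely related. Over all pairs, Spearman's rho of the width ratio and the rank shift among pairs was 0.096. Of the 1083 wider pairs, 15.0% (12.9 to 17.2) ranked at least 10 points higher among pairs and 5.08% (3.85 to 6.56) lower. Of the 1460 narrower pairs, 12.3% (10.7 to 14.1) ranked lower and 5.75% (4.61 to 7.07) higher. By rank class, 11.8% (10.2 to 13.7) of pairs at least 10 points higher were wider, and 11.4% (9.85 to 13.0) of those at least 10 points lower were narrower. Of the 115 pairs at least 20 points higher, 41 (35.7%, 26.9 to 45.1) were wider and 2 narrower, with a median width ratio of 1.34. Of the 176 at least 20 points lower, 21 (11.9%, 7.54 to 17.7) were narrower and 8 wider, with a median ratio of 0.936. The share of wider pairs was thus larger at 20 points higher than at 10, and the interval for narrower pairs at 20 points lower overlapped that at 10. The background over all pairs was 6.14% wider and 8.27% narrower.

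The peaks of the other antibodies were not used to form these classes. Jmjd3, mapped at 2 h, was listed inside the 0 h or 4 h cluster of 15.0% (14.5 to 15.5) of all pairs. It was in 19.7% (17.3 to 22.2) of wider, 15.4% (14.9 to 16.0) of steady and 7.12% (5.86 to 8.57) of narrower pairs, where steady means under 1.5-fold either way. Wider pairs had a median 0 h height of 37 and steady pairs 128, and tall clusters held Jmjd3 more often. With steady pairs weighted to the 0 h heights of the wider ones in 4 classes, the difference went from 4.23 percentage points (95% Wald interval 1.80 to 6.67) to 10.8 points (8.35 to 13.2). The order wider, steady, narrower was found in each of the 4 classes. At heights of 11 to 33 the shares were 5.95% (4.05 to 8.39), 3.28% (2.70 to 3.94) and 1.90% (0.986 to 3.30), and at 114 to 191 they were 47.4% (39.2 to 55.6), 21.5% (20.2 to 22.8) and 13.3% (9.38 to 18.1). Wider clusters offer more sequence in which a peak can lie, and the densities per kb given further on take this into account.

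Jmjd3 also went with higher rank. It was in 30.9% (27.3 to 34.7) of pairs at least 10 points higher within the whole lists, 15.4% of steady ones and 10.1% (9.04 to 11.2) of lower ones. With ranks among pairs these were 25.4% (23.1 to 27.8), 14.1% (13.5 to 14.6) and 14.7% (12.9 to 16.5), and the intervals of lower and steady pairs then overlapped. Matched for 0 h height, with ranks among pairs, the difference from steady pairs was 11.3 points (8.92 to 13.7) for higher and -2.14 points (-4.01 to -0.269) for lower. Of the 115 pairs at least 20 points higher, 67 held Jmjd3 (58.3%, 48.7 to 67.4), against 39 of the 176 at least 20 points lower (22.2%, 16.3 to 29.0).

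Pol II was listed anew more often in wider pairs and in pairs at least 20 points higher among pairs. On 7 chromosomes the 0 h Pol II list ended over 1 Mb short of the later ones, so Pol II shares are given without the 494 pairs there. Pol II was listed at 2 or 4 h and not at 0 h in 6.48% (6.11 to 6.85) of the remaining 17157 pairs. It was so in 12.8% (10.9 to 15.0) of wider and 5.54% (4.40 to 6.86) of narrower pairs, in 20.9% (13.7 to 29.7) of pairs at least 20 points higher among pairs, and in 23.9% (17.5 to 31.3) of the 159 that were both wider and at least 10 points higher. The 110 pairs at least 20 points higher held on average 1.22, 3.19 and 2.95 Pol II peaks in order of time, against 1.08, 1.07 and 1.07 over all pairs. The reverse, Pol II at 0 h and at neither later time, was in 3.87% (3.59 to 4.17) of all pairs and in 15.2% (10.2 to 21.5) of the 171 that were both narrower and at least 10 points lower. At the 10 point call alone, Pol II new after stimulation was in 7.11% (5.79 to 8.62) of higher and 7.47% (6.20 to 8.90) of lower pairs, with intervals that overlap. Matched for 0 h height, with the chromosome ends kept, the difference from steady pairs was 1.07 points (-0.488 to 2.63) for higher pairs. It was 2.24 points (0.780 to 3.71) for lower pairs.

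H3K27me3 was rare where H3K4me3 ranked lower. Of all pairs, 26.7% (26.1 to 27.4) held an H3K27me3 peak at 0 h. The share was 7.08% (5.86 to 8.45) in pairs at least 10 points lower among pairs, 28.5% (27.7 to 29.2) in steady and 30.8% (28.4 to 33.3) in higher ones. Within the whole lists it was 11.7% (10.6 to 12.9) in lower pairs. The contrast was wide in the lower 2 classes of height: at 0 h heights of 11 to 33, 56.4% (51.9 to 60.8) of higher, 35.8% (34.2 to 37.4) of steady and 8.79% (6.09 to 12.2) of lower pairs held H3K27me3. At 34 to 113 these were 55.4% (45.2 to 65.3), 49.6% (48.1 to 51.2) and 4.01% (2.15 to 6.76). At 114 to 191 they were 12.7% (10.0 to 15.7), 21.3% (19.9 to 22.6) and 11.2% (7.51 to 15.9), and at 192 to 361 they were 6.07% (3.27 to 10.2), 4.27% (3.62 to 4.99) and 6.12% (4.41 to 8.24). Wider pairs held H3K27me3 at 0 h more often than steady ones, 42.9% (40.0 to 45.9) against 25.8% (25.1 to 26.5), and the difference was 8.86 points (5.77 to 11.9) at matched height.

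Few pairs held H3K27me3 at 0 h and not at 4 h. This was so in 2.12% (1.42 to 3.03) of pairs at least 10 points higher among pairs, 2.02% (1.80 to 2.26) of steady ones and 1.52% (0.974 to 2.25) of lower ones. In wider pairs it was in 2.59% (1.72 to 3.72), and in narrower ones in 1.37% (0.839 to 2.11). These shares are over all pairs, most of which held no H3K27me3 at 0 h. Over the pairs that held it at 0 h, it was not listed at 4 h in 24 of 112 lower pairs (21.4%, 14.2 to 30.2), 297 of 4185 steady pairs (7.10%, 6.34 to 7.92) and 29 of 422 higher pairs (6.87%, 4.65 to 9.72). The share was thus larger in lower pairs. With whole-list ranks it was 12.9% (9.67 to 16.7) in lower and 6.87% (6.12 to 7.68) in steady pairs. Of the 112 lower pairs 71.4% held a single H3K27me3 peak at 0 h, against 51.7% of the 4185 steady ones. Their median 0 h heights also differed, at 177 and 57. These shares were not matched for height, and the part of height or of peak number in the difference was not tested. By width the shares were 6.02% (4.04 to 8.59) in wider, 7.75% (6.93 to 8.64) in steady and 5.59% (3.45 to 8.50) in narrower pairs, with overlapping intervals.

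**Figure D4:**
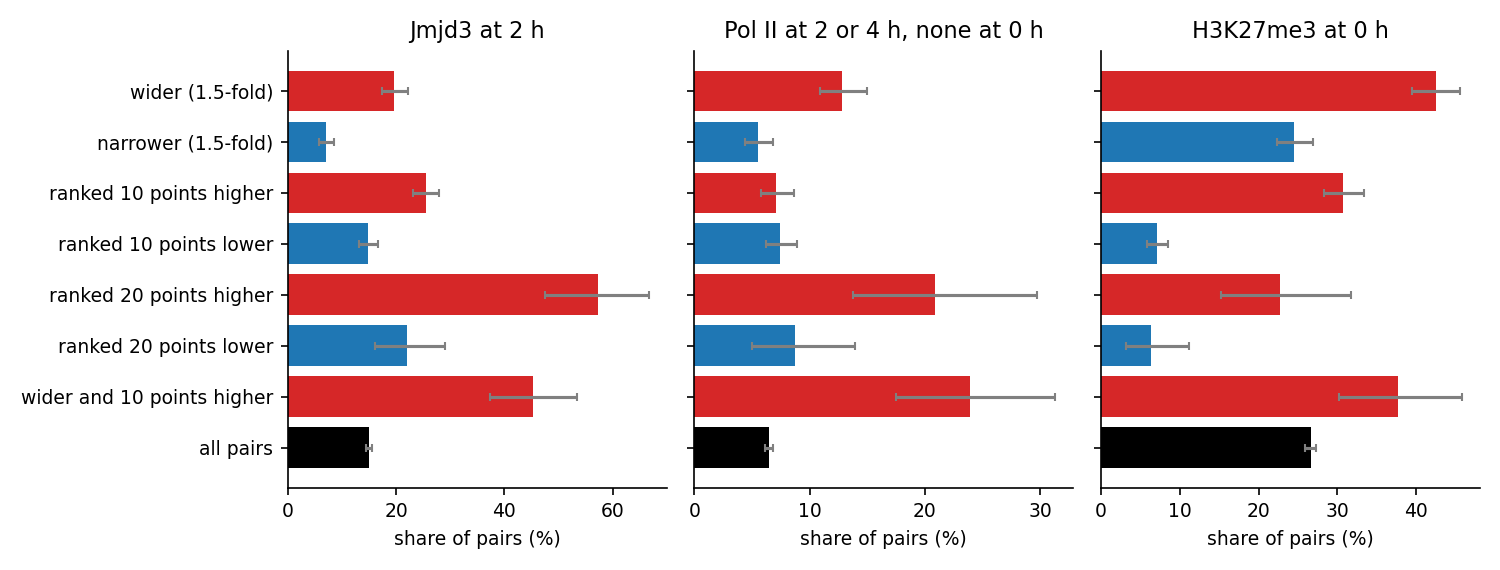
Share of one-to-one pairs (%) that held a Jmjd3 peak at 2 h, a Pol II peak at 2 or 4 h with none at 0 h, or an H3K27me3 peak at 0 h, by change in H3K4me3 width and in height rank among pairs, with exact 95% binomial intervals and without the chromosome ends that the 0 h Pol II list does not reach. Pairs at least 20 points higher stand out for Jmjd3 (57.3%, against 15.1% of all pairs), and pairs that ranked lower for little H3K27me3.

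Of the Pol II and Jmjd3 peaks inside one-to-one pairs, most lay in stretches that H3K4me3 covered at both times, which were also most of the sequence. Peaks outside these pairs were not counted. The stretches of 4 h only held more Pol II peaks after stimulation than before. Each pair was divided into the stretch covered at both times, the stretch covered at 4 h only and the stretch covered at 0 h only, again without the chromosome ends, and peaks were counted per kb with exact Poisson intervals. Over all pairs the stretches of both times (49.2 Mb) held 0.347, 0.341 and 0.338 Pol II peaks per kb in the 3 Pol II lists in order of time. The stretches of 4 h only (6.75 Mb) held 0.0912 (0.0842 to 0.0987), 0.158 (0.149 to 0.168) and 0.149 (0.140 to 0.159). The stretches of 0 h only (7.84 Mb) had the opposite order, 0.115 (0.107 to 0.122), 0.0656 (0.0600 to 0.0715) and 0.0795 (0.0734 to 0.0860).

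In the 1051 wider pairs the added stretch was less dense in Pol II than the old one at each time. At 2 h it held 0.261 (0.239 to 0.285) peaks per kb against 0.355 (0.330 to 0.380), and at 4 h 0.249 (0.227 to 0.272) against 0.342 (0.319 to 0.367). In pairs that were both wider and higher, a class added after values were seen, the added stretch held Pol II after stimulation at densities whose intervals overlapped those of the old one. The 159 such pairs had 0.426 Mb covered at 4 h only, where Pol II peaks per kb in order of time were 0.0822 (0.0572 to 0.114), 0.498 (0.433 to 0.570) and 0.458 (0.396 to 0.527). Their stretches of both times held 0.256 (0.210 to 0.310), 0.515 (0.448 to 0.589) and 0.484 (0.419 to 0.556). The density of Pol II in the added stretch was thus high at 2 h, a time for which no H3K4me3 library was analysed here. In the 1409 narrower pairs the stretch covered at 0 h only held 0.160 (0.145 to 0.178), 0.0780 (0.0671 to 0.0903) and 0.102 (0.0892 to 0.116).

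The density of Jmjd3 over all pairs was 0.0634 (0.0612 to 0.0656) peaks per kb in stretches of both times, 0.00755 (0.00562 to 0.00993) in stretches of 4 h only and 0.00204 (0.00117 to 0.00332) in stretches of 0 h only. In wider pairs it was 0.125 (0.111 to 0.140) in the stretch of both times and 0.0179 (0.0125 to 0.0250) in the added one. In the stretch of both times, where added width plays no part, Jmjd3 was thus denser in wider than in all pairs. In narrower pairs it was 0.0370 (0.0303 to 0.0448).

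**Figure D5:**
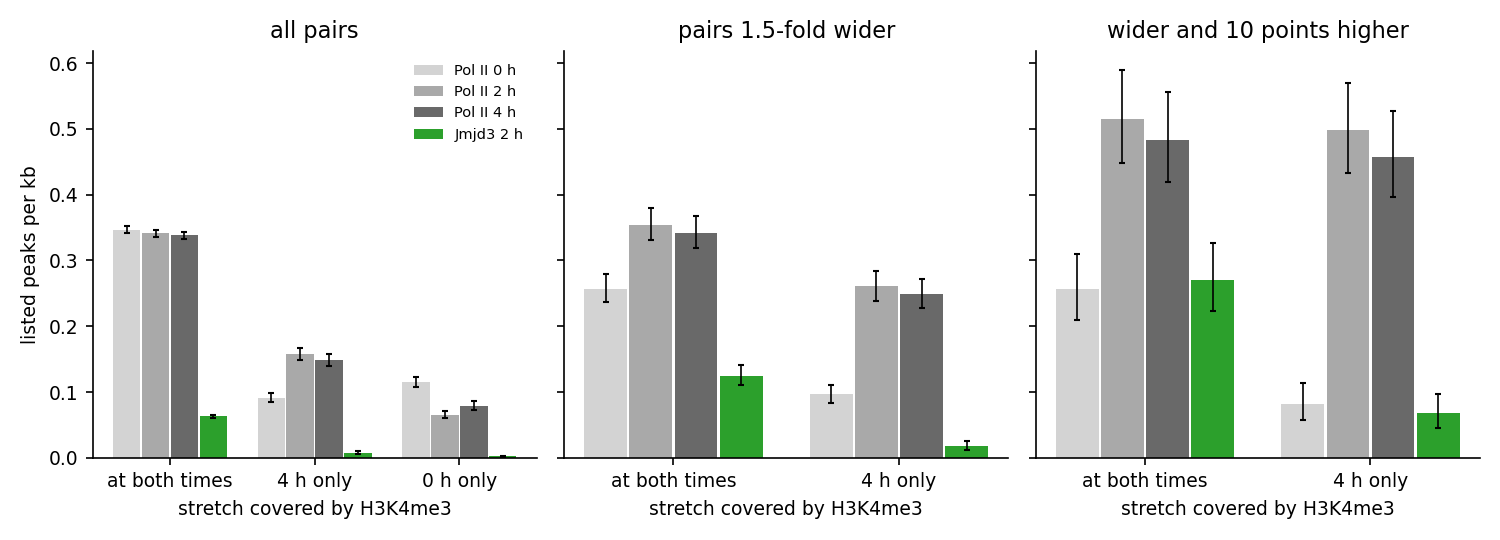
Listed Pol II peaks (0, 2 and 4 h, light to dark grey) and Jmjd3 peaks (green) per kb in stretches that H3K4me3 covered at both times, at 4 h only or, for all pairs, at 0 h only, with exact 95% Poisson intervals. In pairs both wider and higher the 4 h only stretch held 0.0822 Pol II peaks per kb at 0 h and 0.498 at 2 h.

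Most gaps in splits and fusions were small. With lists of equal length there were 235 splits and 150 fusions. In the whole lists, the 231 splits had 233 gaps between their 4 h pieces, with a median of 103 bp, and the 198 fusions had 207 gaps between their 0 h pieces, with a median of 106 bp. Gaps under 100 bp made up 48.9% of those in splits and 48.3% of those in fusions, and 20 and 25 gaps reached 1 kb. Both kinds joined a tall with a low piece: the tallest piece of a fusion had a median percentile rank of 65.3 and the lowest 17.1, and in splits these were 57.8 and 16.0. Jmjd3 was listed in more fusions than splits: 38.4% (31.6 to 45.5) of fusions and 23.4% (18.1 to 29.4) of splits held it. Pol II at 2 h was in 81.3% (75.2 to 86.5) and 73.6% (67.4 to 79.2), and H3K27me3 at 0 h was in 29.8% (23.5 to 36.7) and 31.2% (25.3 to 37.6), both with overlapping intervals.

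The fusion with the largest gap was at chr17:33518165-33544704, where 3 clusters of 0 h, separated by 1040 and 5500 bp, were 1 cluster of 26540 bp at 4 h. Its tallest piece had a height of 265 at 0 h, the fused cluster had 254, and it held 7 Jmjd3 peaks and 9, 14 and 14 Pol II peaks at 0, 2 and 4 h. The cluster at chr7:25489157-25498340 closed a gap of 3472 bp, with no Pol II peak before stimulation, then 7 and 3. At chr18:37867731-37876630 a gap of 3807 bp closed with no Jmjd3 and no Pol II peak at any time and with 4 and 5 H3K27me3 peaks at 0 and 4 h. Of fusions with 3 pieces, chr15:103185136-103195900 closed gaps of at most 60 bp and held 11 and 8 Pol II peaks at 2 and 4 h. It lies beyond 100323245, the last peak of the 0 h Pol II list on chromosome 15. Whether Pol II was there before stimulation could thus not be told. The split with the largest gap, chr13:49309180-49321758, was 12579 bp wide with a height of 208 at 0 h, and at 4 h left pieces 5287 bp apart, the taller with a height of 161. It held 8 Pol II peaks at 0 h and 4 at each later time. The splits and fusions of largest gap were singled out after their values had been seen.

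Of the 5 widest clusters at 4 h, 4 were fusions. At 4 h the widest, chr11:3049251-3100335, spanned 51085 bp with a height of 276. It joined 3 clusters of 0 h, of which the widest, 25640 bp, was also the widest of the 0 h list. That region held 42 to 46 peaks of each Pol II and H3K27me3 list and 43 of Jmjd3, so all antibodies were listed densely there. The second widest at 4 h, chr15:75998337-76035845 (37509 bp), joined 2 clusters of 0 h that together measured 36707 bp and lay 25 bp apart. The third, chr19:5822227-5853762, went from 13057 bp as 1 cluster at 0 h to 31536 bp, with 26, 27 and 25 Pol II peaks and 6 Jmjd3 peaks. Clusters of at least 10 kb numbered 188 at 0 h (0.878%) and 185 at 4 h (0.942%). Among the pairs, 76 were that wide at both times, 54 at 4 h alone and 49 at 0 h alone.

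The tallest clusters were high in both lists. The tallest of both lists was the same cluster, chr6:47575889-47581446 at 0 h, with heights of 361 and 365 and widths of 5558 and 5417 bp. The second, chr17:32901088-32905471 at 0 h, was also second at 4 h, with heights of 316 and 328. The other 6 clusters among the 5 tallest of either time ranked above the 99.8th percentile in the list of the other time. Jmjd3 was listed in 2 of these 8 clusters, the chromosome 6 cluster and chr2:165682406-165688397 at 4 h.

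By chromosome the median width ratio lay between 0.960 (chromosome 7) and 0.997 (chromosome 12). The X chromosome had the fewest rank shifts: of its 524 pairs, 4.20% ranked at least 10 points higher among pairs and 1.15% at least 10 points lower, against 6.12 to 10.6% and 6.14 to 12.4% on the autosomes. Of pairs at least 10 points higher, 21.5% (19.4 to 23.8) had another such pair within 100 kb, against 21.7% (21.0 to 22.3) of all other pairs. At 20 points, a class added after values were seen, it was 10 of 115 (8.70%, 4.25 to 15.4), against 2.00% (1.79 to 2.21). For pairs at least 20 points lower these were 4.55% (1.98 to 8.76) and 3.89% (3.61 to 4.19).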

How the data were processed

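Chromatin immunoprecipitation and sequencing used 100000000 cells per library (500000000 for Jmjd3) and fragments of about 200 to 300 bp, per the labels' protocols. Each library has 1 deposited peak list. It gives a whole-number overlap count per cluster or peak, a signal not scaled by the authors to depth or control in any header or label. The build is mm8, according to the submitters' processing notes. The aligner, the caller and its threshold were not given in the sources used here.

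H3K4me3 clusters sharing at least 1 bp were joined into groups. Width is end minus start plus 1, and rank is 100 times lower plus tied clusters at 50%, over the list length. A width call was 1.5-fold and a rank call 10 points. Single-position peaks counted when inside the 0 h or 4 h cluster. Named pairs follow a rule: the 5 most extreme in ratio (percentile rank of at least 25 at both times) and in whole-list rank shift, the 5 widest and tallest clusters of each time, and the 5 splits and fusions with most pieces. Some of the last 2 kinds are not printed. The classes of 20 points among pairs and of width with rank were added after values were seen. Members, classes and rules were chosen with earlier results of these data known. With 1 library a group there was no test.

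Computation used Python 3.11.15 with scipy 1.17.1, pandas 2.3.3 and numpy 2.4.6, and plots used matplotlib 3.10.9. Pairing was tested on simulated lists (4010 of 4010 planted groups recovered), and the 19006 overlaps of the real lists were counted identically by bedtools 2.31.1. The gene and promoter tables at hand are on GRCm38.p6, another build, so no gene or sequence is given.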

Additional observations from a re-analysis of the deposited data

How the results depend on the processing

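No paired analysis was possible because each group had 1 library. Of 126 recomputed counts, medians and differences, 93 were within 1.5 times the count or within the interval of the value reported. The unequal list lengths set the balance of the rank shifts: the median whole-list shift of -3.45 points became 0.22 with lists of equal length and 0.26 with ranks among pairs, and the counts of 628 higher and 3168 lower became 1368 and 1502, and 1370 and 1583. At 20 points they were 64 and 457. With lists of equal length 1606 clusters of 0 h and 1521 of 4 h were alone. Above the median height of each list there were 9559 one-to-one pairs, 34 splits, 24 fusions, 28 groups of several to several, 985 and 74 clusters alone at 0 and 4 h, and 357 wider and 538 narrower pairs, fewer by construction. At 2-fold, 227 were wider and 297 narrower. Groups of several to several, 158 in all, fell to 6 with 50% of the shorter cluster shared and to 2 with clusters under 1 kb apart merged.

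Matched to 4 classes of 0 h height, differences from steady pairs moved for Jmjd3 in wider (4.23 to 10.8 points), narrower (-8.31 to -3.39) and lower pairs (-5.35 to -2.33), and for H3K27me3 at 0 h in wider (17.1 to 8.86), narrower (-1.27 to -7.05) and lower pairs (-18.4 to -22.5). With ranks among pairs, the difference for Jmjd3 was 11.3 points in higher pairs and turned from -5.35 to 0.579 (-1.25 to 2.41) in lower pairs. That for H3K27me3 turned from -3.58 to 2.33 (-0.222 to 4.88) in higher pairs and was -21.4 in lower ones, and that for new Pol II was 1.15 in lower pairs. Leaving out the chromosome ends, or the 240 pairs that held peaks of all 6 other lists, was chosen after seeing the data and moved none of the 12 differences out of its interval. A deeper library can show clusters wider at a fixed lowest count; the depth of each library was unknown, and its part in the widths was not tested.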
